A study of Mus musculus with 8 samples.

Results

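Copper handling genes were followed in the testis of 17.5 dpp males. The set holds 10 genes that import copper, pump it out, pass it between proteins or bind it: Slc31a1, Atp7a, Atp7b, Atox1, Ccs, Cox17, Sco1, Cox11, Mt1 and Mt2. Rows were taken by gene symbol from the gene-level table, which lists 18097 genes. Of the 10 genes 9 were found, since no row carried the name Sco1, and 8 of the 9 were detected and could be tested among 8324 genes. Atp7a was selected on its difference in log2 signal between the genotypes compared here, so its values are given as a description with no p-value. The other genes were chosen by what their proteins do, though with earlier results of these data known.

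The comparison was between XEOSry and XEZ2OSry males, with 4 animals per genotype and 1 array per animal. All 8 males were XO on the MF1 background and carried transgenes for Sry and Eif2s3y, the spermatogonial proliferation factor, in place of a Y chromosome. XEOSry males had no further transgene. XEZ2OSry males carried in addition a Zfy2 transgene on the X chromosome. The animals are therefore models of a single X with few Y-derived genes, and neither genotype has a Y chromosome to pair with it. The identifiers of the animals differ in their first digits between the genotypes throughout, and those of XEOSry replicates 3 and 4 differ in their last letter only. What these digits and letters mark is not stated in the labels, and whatever the first digits mark cannot be told apart from the genotype. Total RNA of the whole testis was read on single-colour Illumina BeadChips, on which the fluorescence of beads that carry a probe stands for the abundance of a transcript.

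Between 8063 and 8434 genes were detected per array (detection p-value under 0.01 against negative control beads). The deposited linear signals had already been aligned between arrays (medians of 105.51 to 106.32), so that brightness before that step is not known. The Zfy2 probe was at background in both genotypes, at log2 values of 6.05 to 6.20 in XEOSry and 6.15 to 6.19 in XEZ2OSry, and so did not check the labels. The signal of the Zfy1 probe was 6.13 to 6.28 in XEOSry and 6.50 to 6.77 in XEZ2OSry, without overlap but also without reaching the detection limit on any array. By the paper's account neither genotype carries Zfy1, and what this probe read was not tested. Eif2s3y, a transgene of all 8 males, was at 12.90 ± 0.486 in XEOSry and 12.36 ± 0.244 in XEZ2OSry (SD, n = 4 each), with overlap and a difference of 0.54 (adjusted p = 0.190, limma). The replicate 4 arrays weighed most on the counts over all genes. When the XEOSry one was left out, 396 genes passed an adjusted p of 0.05 in limma, and 519 passed without the XEZ2OSry one, against 5 with all arrays.

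Copper is both a cofactor and a poison, and cells keep almost none of it free. The membrane channel encoded by Slc31a1 lets it in, chaperones carry it to the enzymes that need it, and the ATPases encoded by Atp7a and Atp7b load it into the secretory pathway or pump it out of the cell. Metallothioneins hold the surplus. Loss of ATP7A causes Menkes disease in people and the mottled coat of mutant mice. Atp7a lies on the X chromosome, which male germ cells silence during pachytene, whereas all other genes of the set are autosomal.

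Atp7a, the copper-exporting ATPase gene at chrX:106027224-106128161 (GRCm38.p6), was the gene of the set with the largest difference between the genotypes. On the array scale its log2 signal was 8.05, 8.16, 8.37 and 7.93 in the XEOSry testes, against 7.21, 7.29, 7.17 and 7.35 in the XEZ2OSry testes. Every XEOSry array was above every XEZ2OSry array, and the lowest XEOSry value came from replicate 4, while the highest XEZ2OSry value came from the other replicate 4. The means were 8.13 ± 0.189 in XEOSry and 7.26 ± 0.0813 in XEZ2OSry (SD, n = 4 each). The difference in log2 signal was 0.87 (SE 0.111), or 1.83-fold, which describes a gene selected on this same difference. Without XEOSry replicate 4 it was 0.94, and without XEZ2OSry replicate 4 it was 0.91. The signals include background. Gene values with a detection p above 0.5 had a median log2 of 6.13. A ratio of signals therefore understates the ratio of transcripts for a gene as dim as Atp7a in XEZ2OSry. In whole testis, fewer cells of a type and less RNA per cell cannot be told apart.

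The second copper ATPase, Atp7b (chr8:21992783-22060074), whose human counterpart is mutated in Wilson disease, was not detected on any array. Its log2 signal stayed between 6.17 and 6.23 in XEOSry and between 6.20 and 6.23 in XEZ2OSry, where undetected genes lie, and no comparison was made.

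Slc31a1 (chr4:62360583-62391769), the high-affinity copper importer, had log2 signals of 9.92, 10.39, 10.14 and 10.05 in XEOSry and 9.82, 9.62, 9.89 and 9.94 in XEZ2OSry. The genotypes overlapped only through XEOSry replicate 1, which lay below XEZ2OSry replicate 4. The means were 10.13 ± 0.201 in XEOSry and 9.82 ± 0.141 in XEZ2OSry (SD, n = 4 each). The difference of 0.31 (SE 0.123, 95% interval 0.03 to 0.59) had an unadjusted p of 0.0331 and did not pass after adjustment over all genes (adjusted p = 0.171, limma).

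**Figure D1:**
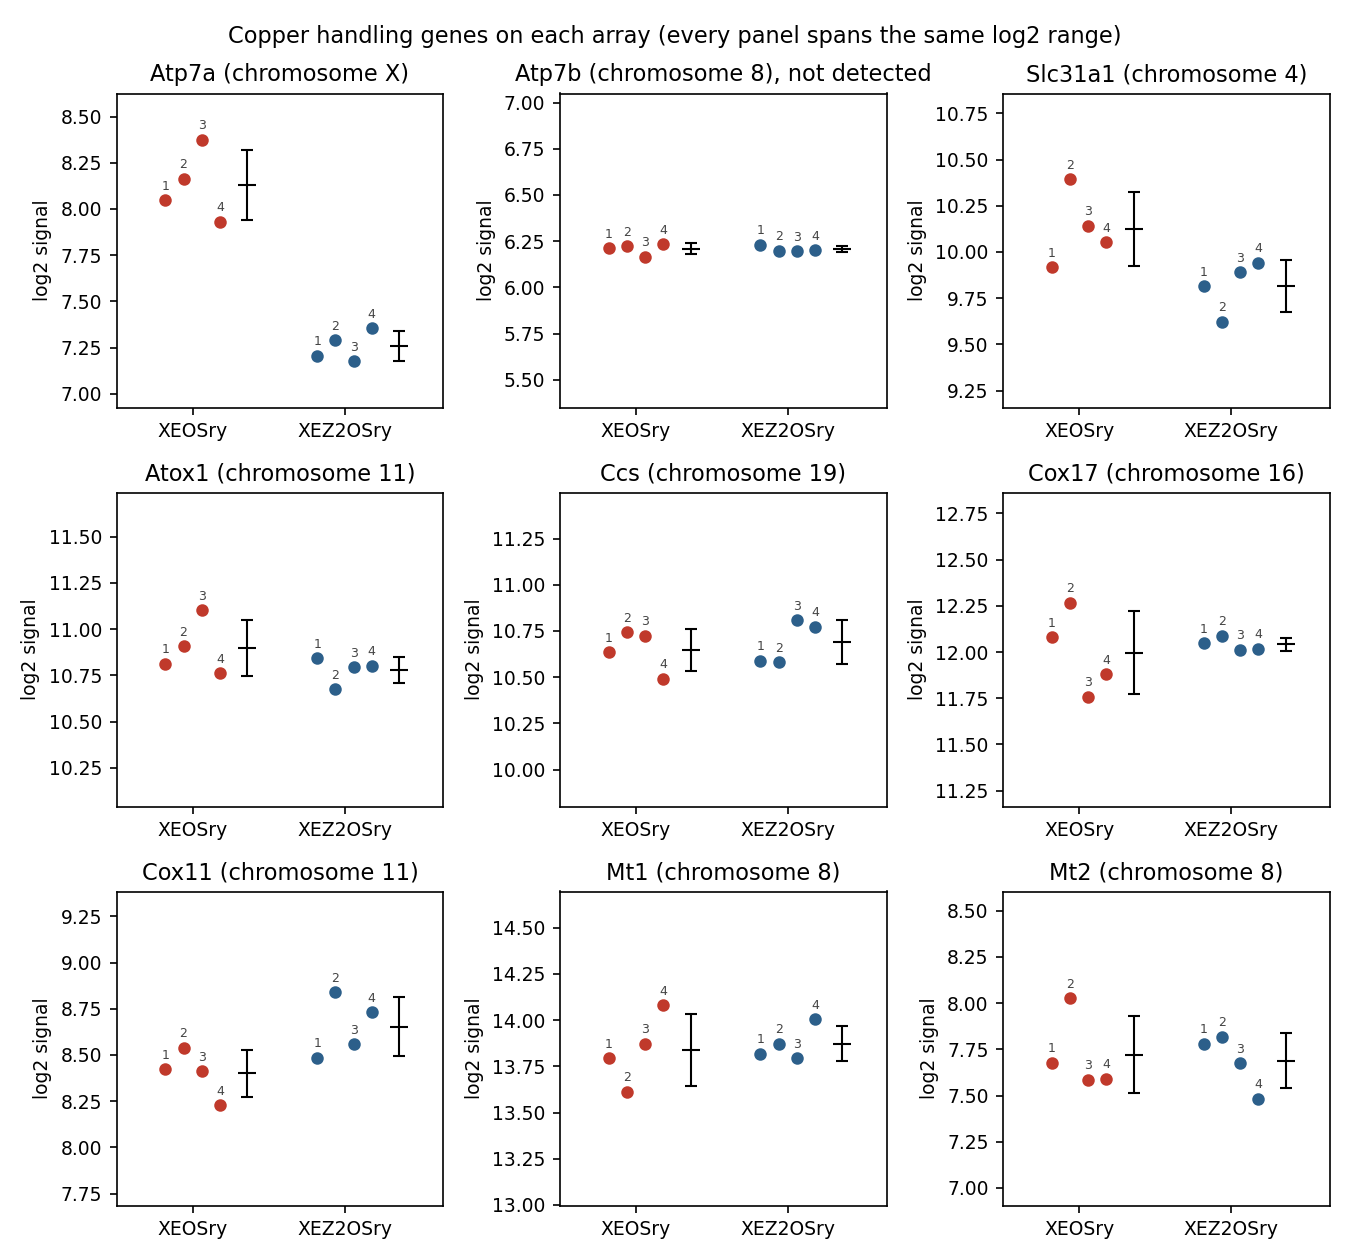
Log2 signal (y axis, background included) of the 9 copper handling genes found in the table, in XEOSry and XEZ2OSry testes. Points are arrays with their replicate numbers, and bars are the mean ± SD of 4 arrays. Every panel spans the same log2 range, so that spreads can be compared across panels but levels cannot. Atp7a is the panel in which the 2 sets of points do not overlap.

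Once inside the cell, copper is handed on by chaperones. Atox1 (chr11:55446637-55461208), which delivers copper to both ATPases, was at 10.81, 10.91, 11.10 and 10.76 in XEOSry and at 10.84, 10.67, 10.79 and 10.80 in XEZ2OSry (log2 signals). XEOSry replicates 2 and 3 were above every XEZ2OSry array and the other two lay among them. The difference was 0.12 (SE 0.0991, 95% interval -0.10 to 0.34, adjusted p = 0.468). Ccs (chr19:4825366-4839356), the chaperone of the superoxide dismutase Sod1, was at 10.64, 10.74, 10.72 and 10.49 in XEOSry and at 10.59, 10.58, 10.81 and 10.77 in XEZ2OSry. The genotypes overlapped over most of their range, with a log2 difference of -0.04 (SE 0.0987, 95% interval -0.26 to 0.18, adjusted p = 0.811).

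Cytochrome c oxidase needs copper within the mitochondrion, where Cox17 passes it to Sco1 and Cox11. Cox17 (chr16:38346983-38352763) was at 12.08, 12.27, 11.76 and 11.88 in XEOSry, against 12.05, 12.09, 12.01 and 12.02 in XEZ2OSry. XEOSry replicates lay on both sides of the narrow XEZ2OSry range, with an SD of 0.224 in XEOSry and 0.0345 in XEZ2OSry. The log2 difference was -0.05 (SE 0.117, 95% interval -0.31 to 0.22, adjusted p = 0.818). Cox11 (chr11:90638184-90645977), which inserts copper into the catalytic core of the oxidase, was at 8.42, 8.54, 8.41 and 8.23 in XEOSry and at 8.49, 8.84, 8.56 and 8.73 in XEZ2OSry. XEOSry replicate 2 lay above XEZ2OSry replicate 1, and otherwise the XEOSry arrays were the lower ones. The difference of -0.25 (SE 0.111, 95% interval -0.50 to -0.0035) ran opposite to that of Atp7a and Slc31a1, with an unadjusted p of 0.0475, and did not pass after adjustment (adjusted p = 0.197, limma).

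The metallothioneins Mt1 (chr8:94178883-94180327) and Mt2 (chr8:94172618-94173567) are neighbours, and their transcription is a common reporter of free zinc, cadmium and copper. The log2 signal of Mt1 was 13.79, 13.61, 13.87 and 14.08 in XEOSry and 13.82, 13.87, 13.79 and 14.00 in XEZ2OSry. XEOSry values bracketed the XEZ2OSry values, and the difference was -0.03 (SE 0.113, 95% interval -0.29 to 0.22, adjusted p = 0.867). Mt2 was at 7.68, 8.03, 7.58 and 7.59 in XEOSry and at 7.78, 7.82, 7.68 and 7.48 in XEZ2OSry. Its highest value was XEOSry replicate 2, which for Mt1 was the lowest, and its difference was 0.03 (SE 0.127, 95% interval -0.25 to 0.32, adjusted p = 0.883). Metallothionein transcripts resemble each other, and whether either probe also reads another family member was not tested.

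The zinc-binding factor MTF1 drives metallothionein transcription through a short metal response element. Windows of 250 bases before to 50 after the start that RefSeq gives (GRCm38.p6) were searched on both strands for TGCACNC or TGCGCNC. A window was available for 8 of the 10 genes, Ccs and Cox17 being the exceptions. Matches were found 4 times in Mt2, 3 times in Mt1, 2 times in Atp7a and 1 time in Atp7b, and not in the windows of Slc31a1, Atox1, Sco1 and Cox11. Of 32851 windows in the table, 25.7% hold at least 1 match, 7.11% at least 2, 1.97% at least 3 and 0.517% at least 4. The windows of the metal-responsive genes of the set and of its exporter are printed on the forward strand of the gene, with the matches in capitals, and lie at chr8:94178839-94179138 (Mt1), chr8:94172368-94172667 (Mt2) and chrX:106026974-106027273 (Atp7a).
Mt1: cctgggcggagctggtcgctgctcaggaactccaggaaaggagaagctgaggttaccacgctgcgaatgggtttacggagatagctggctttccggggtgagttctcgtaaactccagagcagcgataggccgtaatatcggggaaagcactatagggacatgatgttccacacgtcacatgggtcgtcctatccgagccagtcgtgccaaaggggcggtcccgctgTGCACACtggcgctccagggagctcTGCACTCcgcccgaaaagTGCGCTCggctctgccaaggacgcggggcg
Mt2: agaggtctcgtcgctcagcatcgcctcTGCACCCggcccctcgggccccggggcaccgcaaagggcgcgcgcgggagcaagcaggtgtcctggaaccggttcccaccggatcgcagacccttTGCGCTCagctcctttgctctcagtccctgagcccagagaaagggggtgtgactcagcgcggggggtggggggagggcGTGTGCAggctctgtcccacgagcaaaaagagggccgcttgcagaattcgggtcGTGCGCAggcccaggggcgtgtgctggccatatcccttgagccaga
Atp7a: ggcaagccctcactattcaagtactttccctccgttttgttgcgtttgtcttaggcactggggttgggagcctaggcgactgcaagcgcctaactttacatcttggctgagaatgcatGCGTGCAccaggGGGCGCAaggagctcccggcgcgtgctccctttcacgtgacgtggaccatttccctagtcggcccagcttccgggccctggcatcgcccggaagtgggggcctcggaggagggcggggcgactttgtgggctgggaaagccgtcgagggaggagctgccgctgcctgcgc
Both Atp7a matches read on the reverse strand, GCGTGCA 132 bases and GGGCGCA 120 bases before the start. For Mt1 the start used for the window lies 206 bases after the first base of the gene as given above, and the matches surround the window's start, with TGCACAC 23 bases before it and TGCACTC and TGCGCTC 2 and 20 bases after it. In Mt2 they are spread over the window, from TGCACCC 223 bases before the start to GTGCGCA 4 bases after it. A match is no evidence that a factor binds. Beside these letters stand the measured differences between XEOSry and XEZ2OSry of -0.03 for Mt1, 0.03 for Mt2 and 0.87 for Atp7a.

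None of the 7 tested genes other than Atp7a passed an adjusted p of 0.05, a threshold that 0.0601% of all 8324 genes passed (0.024% higher in XEOSry and 0.036% lower). At an unadjusted p under 0.05, 1 of the 7 was higher in XEOSry (Slc31a1) and 1 lower (Cox11), against 24.8% of all genes in either direction. None of the 7 was free of overlap between the genotypes, against 10.9% of all genes (6.34% higher and 4.58% lower). Their median difference was -0.03, with 3 above 0 and 4 below, and the median of all genes was 0.07 with quartiles of -0.11 and 0.22. The intervals of the 5 genes other than Slc31a1 and Cox11 lay between -0.31 and 0.34.

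Copper genes outside the set were taken by role from a list of 43, of which 38 were found and 28 tested. None passed the adjusted threshold. At an unadjusted p under 0.05, 3 of the 28 were higher in XEOSry (Cmc1, Cp and Slc30a1) and 1 lower (Steap2). Of all genes 24.8% passed that limit in either direction. Without overlap between the genotypes were 1 higher (Slc30a1) and 1 lower (Steap2), against 10.9% of all genes in either direction. The median difference of the 28 genes, 0.07, was that of all genes. Among genes of uptake and reduction, Steap2, a metalloreductase, was at 7.11, 6.89, 7.02 and 6.99 in XEOSry and 7.23, 7.53, 7.24 and 7.13 in XEZ2OSry. The XEOSry arrays were all below the XEZ2OSry arrays, at a difference of -0.28 (SE 0.107, adjusted p = 0.161), while the divalent metal transporter Slc11a2 differed by 0.03. Commd1, which helps to return the copper ATPases to the Golgi, averaged 10.65 ± 0.320 in XEOSry and 11.02 ± 0.314 in XEZ2OSry (SD, n = 4 each), a difference of -0.37 with overlap (adjusted p = 0.265).

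Of the mitochondrial group, Cmc1, a cytochrome c oxidase assembly factor, differed most, at 10.78 ± 0.324 in XEOSry and 10.38 ± 0.154 in XEZ2OSry (SD, n = 4 each, difference 0.40, adjusted p = 0.176), and Chchd7 differed by -0.05. Among the copper enzymes, the ferroxidase ceruloplasmin (Cp) was at 8.51, 8.39, 8.35 and 8.13 in XEOSry and 7.81, 7.87, 7.96 and 8.41 in XEZ2OSry. The overlap came from XEZ2OSry replicate 4 alone, which lay above XEOSry replicates 2, 3 and 4. Cp differed by 0.33 (adjusted p = 0.200), and by 0.47 without XEZ2OSry replicate 4 (adjusted p = 0.0490, limma). Without that array 519 of all 8324 genes passed, against 5 with all arrays, and Cp was the 1 other copper gene among them. Sod1, which receives copper from Ccs, differed by 0.25 (adjusted p = 0.377). Of the copper-binding proteins, the amyloid precursor App differed by 0.50 with an SD of 0.552 in each genotype, and Cutc differed by 0.07.

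Among other metallothionein genes and their regulators, Mt3, a metallothionein best known from the brain, was at 8.77, 8.41, 8.22 and 7.44 in XEOSry and 7.86, 7.86, 7.66 and 7.75 in XEZ2OSry. XEOSry replicate 4 was the lowest of all arrays and the other XEOSry arrays were the highest. The difference was 0.43 (adjusted p = 0.288) and became 0.68 without XEOSry replicate 4 (adjusted p = 0.0461, limma). Without that array 396 of all 8324 genes passed, and Mt3 was the 1 other copper gene among them. Slc30a1, a zinc exporter that MTF1 also drives, was at 8.32, 8.44, 8.35 and 8.34 in XEOSry and 8.16, 8.11, 8.13 and 8.29 in XEZ2OSry, without overlap and with a small difference of 0.19 (SE 0.0825, adjusted p = 0.192).

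**Figure D2:**
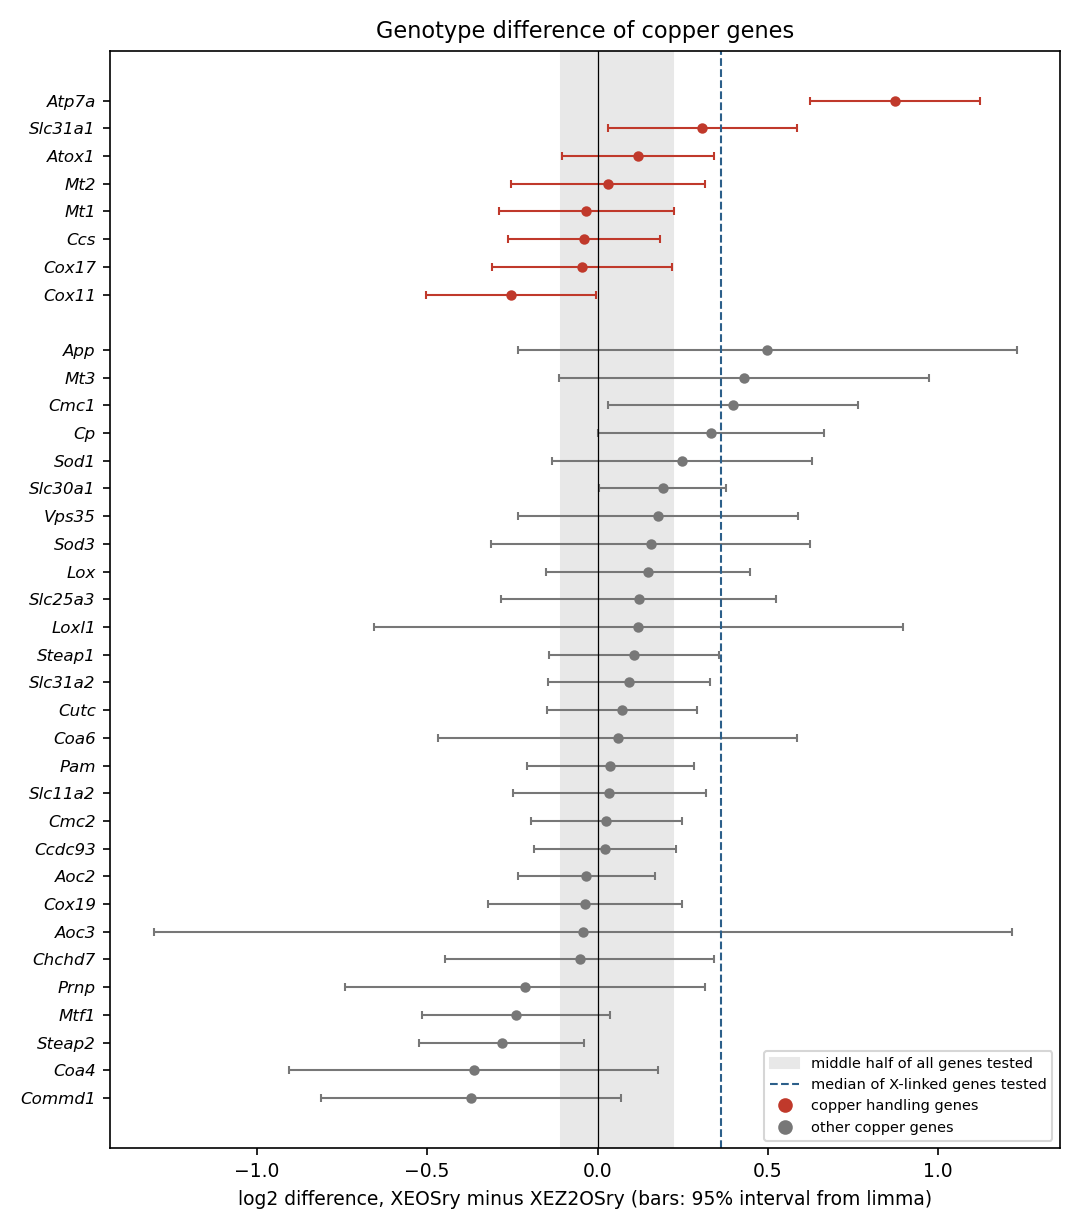
Difference in log2 signal, XEOSry minus XEZ2OSry (x axis), with 95% intervals from limma, for the 8 tested copper handling genes (red) and the 28 other copper genes (grey), each group ordered by difference. The grey band spans the quartiles of all 8324 genes, -0.11 to 0.22, and the dashed line is the median of X-linked genes, 0.36. Atp7a stands at 0.87, and the other differences lie between -0.37 and 0.50. The bar of Atp7a is no test, since the gene was selected on this difference.

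Atp7a was the only X-linked gene tested in either list, and X-linked genes differed as a group. Of 285 X-linked genes tested 277 had a difference above 0, with a median of 0.36, against 0.06 for 7651 autosomal genes. Without overlap and higher in XEOSry were 21.1% of X-linked and 5.8% of autosomal genes. Ordered by difference, Atp7a was number 12 of the X-linked genes and number 13 of all genes, between Magea6 at 0.88 and EG434729 at 0.86. The mean log2 signal of the other 284 X-linked genes was 8.70, 8.93, 8.80 and 8.47 in XEOSry and 8.37, 8.17, 8.31 and 8.51 in XEZ2OSry. The 2 sets overlapped through their replicate 4 arrays.

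This mean was subtracted from Atp7a on each array. Because Atp7a was selected on a difference that is large among X-linked genes, an excess over the mean is built into the choice, and the values only describe its size. Levels of different probes cannot be compared, so that only the change between arrays is read. Atp7a minus the mean was -0.66, -0.77, -0.43 and -0.54 in XEOSry, against -1.17, -0.88, -1.13 and -1.16 in XEZ2OSry. The genotypes did not overlap, at -0.60 ± 0.147 in XEOSry and -1.08 ± 0.137 in XEZ2OSry (SD, n = 4 each), and differed by 0.49.

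**Figure D3:**
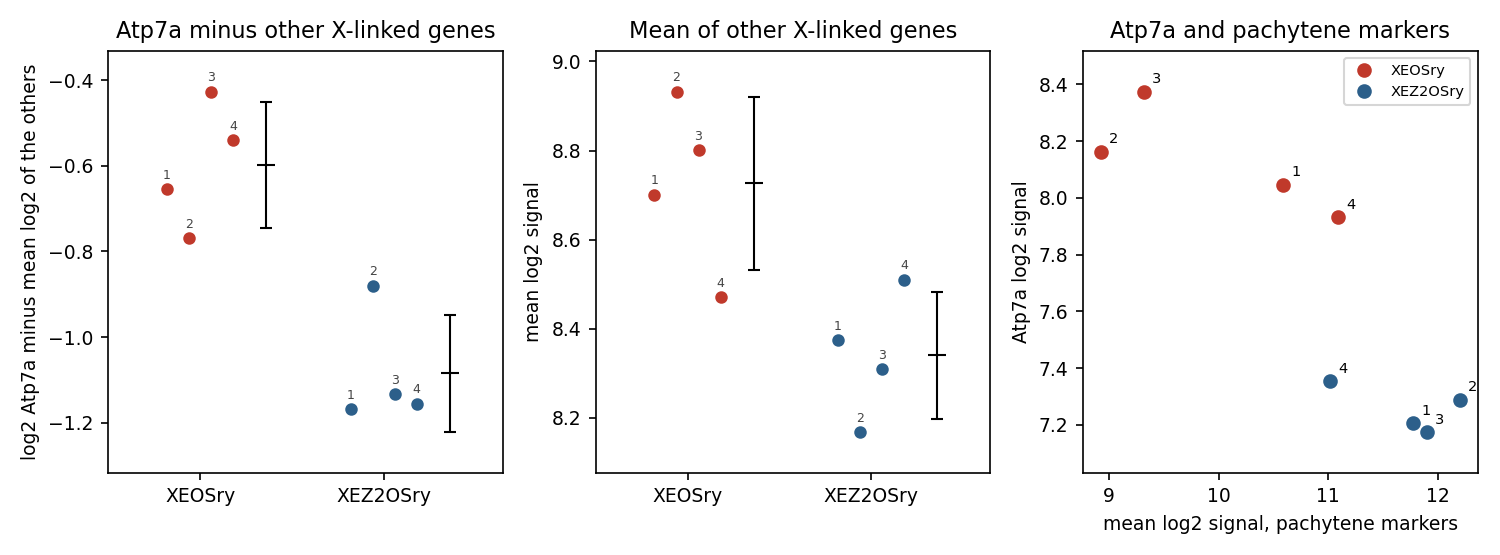
Left, log2 signal of Atp7a minus the mean log2 signal of the other 284 X-linked genes on the same array (y axis). Middle, that mean itself. Right, Atp7a log2 signal (y axis) against the mean log2 signal of 8 pachytene marker genes (x axis). Points are arrays with replicate numbers, XEOSry red and XEZ2OSry blue, and bars are the mean ± SD of 4 arrays. The left panel averages -0.60 in XEOSry and -1.08 in XEZ2OSry, a gap that the choice of Atp7a by its difference builds in, and in the middle panel the genotypes overlap at replicate 4.

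Around Atp7a, 25 genes of the table start within 2 Mb, of which 5 were detected. All 5 had a difference above 0, with a median of 0.40 that is close to the X-linked median of 0.36. None of the 5 passed the adjusted threshold (adjusted p from 0.1295 for Magee1 to 0.695 for Tlr13, limma), and the intervals below are not adjusted. Magee1, at -0.907 Mb from the start of Atp7a, had a difference of 0.40 (95% interval 0.11 to 0.69). Tlr13, a toll-like receptor gene 0.116 Mb after it, was the nearest and differed least, by 0.06 (95% interval -0.15 to 0.27). Its mean log2 signals of 6.60 in XEOSry and 6.54 in XEZ2OSry lay close to the 6.13 of undetected genes. It was detected on 2 of the 4 XEZ2OSry arrays, so that a difference in its transcript could be missed. Taf9b, a subunit gene of the general transcription machinery at 0.18 Mb, differed by 0.65 (95% interval 0.15 to 1.15). The lysophosphatidic acid receptor gene Gpr23, now Lpar4, differed by 0.19 at 0.893 Mb. At 1.756 Mb, 2610002M06Rik was at 8.61, 9.12, 8.53 and 8.17 in XEOSry and 8.17, 7.86, 8.15 and 8.13 in XEZ2OSry. It was the 1 neighbour of the 5 without overlap, by a narrow margin, with a difference of 0.53. Among all X-linked genes tested 21.1% were without overlap and higher in XEOSry.

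**Figure D4:**
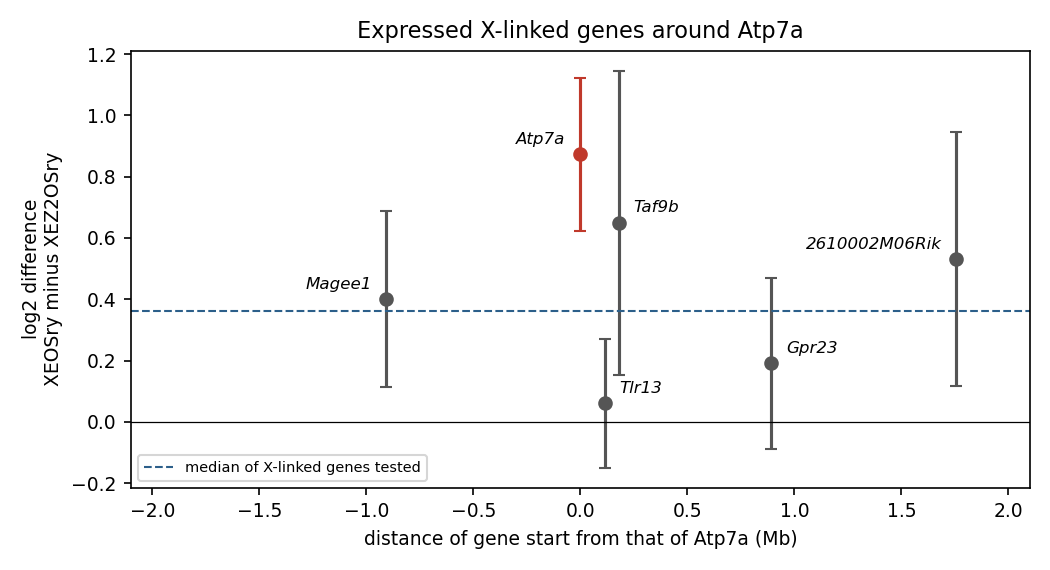
Difference in log2 signal, XEOSry minus XEZ2OSry (y axis), with 95% intervals from limma, against the distance of each gene start from that of Atp7a in Mb (x axis) for Atp7a (red) and the 5 detected genes within 2 Mb (grey). The dashed line is the median of X-linked genes, 0.36. The neighbours run from 0.06 for Tlr13 to 0.65 for Taf9b, and Atp7a is at 0.87. The bar of Atp7a is no test, since the gene was selected on this difference.

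Markers of the cell types of the testis were set beside these values. Of 11 pachytene spermatocyte markers 8 were tested, and all 8 had a difference below 0, with a median of -1.51 and none past the adjusted threshold (7 at an unadjusted p under 0.05). Their mean log2 signal ran from 8.93 to 11.09 in XEOSry and from 11.02 to 12.20 in XEZ2OSry, with Ldhc at -1.42, Hspa2 at -0.63, Tdrd6 at -3.73, Adam3 at -2.44 and Acr at -1.55. Of the defining markers Sycp3 and Mybl1 were not detected on any array. Within a genotype, arrays with more pachytene marker signal had less Atp7a (Pearson r of -0.76 of the deviations from the genotype means, 8 arrays), and the same held for Slc31a1 (-0.80), Ccs (-0.75) and Atox1 (-0.71). Thus 4 of the 8 genes of the set, Atp7a among them, lay at or below -0.7, as did 12.5% of all genes. The limit of -0.7 was not part of the planned comparisons and falls next to the value of Atox1. These shares are therefore a description only, and whether the set differs from all genes was not tested. These deviations share their arrays and their normalization, and the part of pachytene cells in the Atp7a difference was not tested.

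The lists for other cell types had medians nearer to 0. Median differences were 0.33 over 5 of 10 spermatogonial markers (Sohlh1 and Uchl1 at 0.44 and 0.45, and Id4 at -0.89), 0.23 over 5 of 9 Sertoli cell markers (Aard and Cldn11 at 0.22 and 0.23), and -0.04 over 4 of 7 Leydig cell markers (Cyp17a1 and Insl3 at -0.33 and 0.08). They were 0.26 over 4 of 6 macrophage markers (Lyz2 and Cd68 at 0.33 and 0.31), 0.29 over 3 of 4 peritubular muscle markers (Acta2 and Myh11 both at 0.29), and -0.10 over 3 of 3 red blood cell markers (Hba-a1 and Hbb-b1 at -0.19 and -0.10). The mean signals of each of these 6 lists overlapped between the genotypes, the Sertoli list for example at 11.03 to 11.67 in XEOSry and 10.51 to 11.55 in XEZ2OSry. The Leydig cell enzymes Star, Hsd3b1 and Hsd3b6 were not detected on any array. Since metallothioneins also respond to glucocorticoids, 5 metal and glucocorticoid response genes were read with them. Their median was 0.32, with none past the adjusted threshold. Sgk1 and Tsc22d3 were both at 0.40, Fkbp5 at 0.32, Hmox1 at 0.11 and Per1 at -0.13, and Tsc22d3 is X-linked, where the median was 0.36.

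Within a genotype the genes of the set did not vary as one. Atp7a varied with Atox1 (r = 0.77 of the deviations from the genotype means, 8 arrays) and less with Slc31a1 (0.30). Both Atp7a and Atox1 also varied against the pachytene markers (-0.76 and -0.71). Apart from the pair with Slc31a1, the pairs of the set named here are its strongest, so their size is no test. Mt1 and Mt2 varied in opposite directions (r = -0.81), and 8.75% of all genes reached -0.7 or below with Mt1. Cox17 varied with Mt2 (0.79) and against Mt1 (-0.70). The limit of -0.7 is looser than the -0.81 of Mt2, and for Atp7a with Atox1 and Cox17 with Mt2 no share of all genes was computed. The 5 genes whose deviations were most like those of Atp7a were Helb (0.95), Terf2ip (0.94), Cuedc1 (0.94), Irgm (0.94) and Loh12cr1 (0.93), all autosomal, and 0.216% of all genes reached 0.9. Closest to Mt1 were Ascc3l1 (0.98), Ssrp1 (0.96) and Rtn3 (0.96), and closest to Mt2 were Gpbp1l1 (0.97), Guca1a (0.97) and 1110018J18Rik (0.97). With 8 arrays and 8324 genes such rankings rest on few points, and ranking by Spearman correlation returned 0 of the 5 genes named for Atp7a.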

How the data were processed

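Whole testes of 4 XEOSry and 4 XEZ2OSry males were profiled, and the sample titles gave the groups. The authors quantile normalized the BeadChip signals in BeadStudio and deposited gene-level log2 values, which were used as they stand (5.72 to 15.48). The submitters' processing notes name GenomeStudio 2011.1. The authors also deposited linear signal intensities, used for the normexp and quantile alternatives, and a detection p-value per gene and array. The Methods speak of 3 animals per genotype and the labels of 4, and all 8 arrays were used. These intensities were already aligned between arrays, so that alternatives built on them do not start from raw signals. A further table holds the deposited log2 values again and served as an alternative.

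Genes detected at a p under 0.01 on at least 4 of 8 arrays were kept (8324). A linear model per gene with genotype as its single term was fitted to the log2 values (limma 3.58.1 under R 4.3.3), variances were moderated by eBayes, and two-sided p-values were adjusted by the Benjamini-Hochberg method across every kept gene, with 0.05 as the threshold. The code was tested on simulated data. Array names were matched to GRCm38.p6 by symbol (14094) or synonym (3068), 50 matched several genes and 885 none. Promoter windows came from RefSeq. Since arrays give no counts, their number limits the precision. The labels do not say which animals, if any, shared a litter, so p-values measure the spread between these animals only.

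The genes and lists were chosen with earlier results of these data known. Named are all genes of the set, any other copper gene past the threshold and, per role, those with the largest difference and the highest signal, every detected neighbour, the 5 genes most like Atp7a and the 3 most like Mt1 and Mt2, and per marker list the 2 brightest and any at an unadjusted p under 0.01. Genes named in counts of 5 or fewer, or beside Atp7a in rank, were chosen after their values were seen. Alternatives were another normalization, background correction, source table, filter and variance model, a replicate block, and leaving out each array. Plots were drawn with matplotlib 3.10.9 in Python 3.11.15, from tables made with pandas 2.3.3 and numpy 2.4.6.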

Additional observations from a re-analysis of the deposited data

Results flagged for a closer look

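Among 72 groups of 4 arrays, formed by the genes of the set and the other tested copper genes in each genotype, 1 held an array far from the others. Pam, the copper enzyme that amidates peptides, was at 7.18 in XEOSry replicate 3, with the other XEOSry arrays between 6.90 and 6.92. The gap made up 0.902 of the range, above Dixon's critical value for 4 samples. Chance alone marks about 1 in 20 such groups.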

How the results depend on the processing

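Over 19 alternatives the difference of Atp7a stayed between 0.79 and 1.09, the upper end coming from normexp background correction with an offset of 16, which was added after seeing the data (offset 50 gave 0.90). Both start from intensities that were already aligned between arrays. The other 7 genes passed the adjusted threshold under none of the 19. Slc31a1, Atox1 and Cox11 kept their sign throughout, and Ccs, Cox17, Mt1 and Mt2, all close to 0, kept it in 17, 18, 17 and 17. The number of all genes called was 5, and became 8 with an offset of 16, 1 with detection on all 8 arrays, 1 without variance moderation, and 3 to 519 when 1 array was left out. Of the other copper genes 0 to 1 passed with 1 array left out. Ranking by Spearman correlation shared 0 of 5 genes with the main ranking. Arrays with the same replicate number were not alike throughout (correlations of 0.43, -0.23, 0.33 and -0.42, against -0.72 to 0.75 for other pairs). Whether the animals were matched in some other way cannot be told from these correlations. With the replicate block 1 gene was called. The number of arrays and, for Atp7a in XEZ2OSry, the nearness to background limit the precision.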
